A study of Mus musculus with 24 samples.

Results

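A set of 770 peaks of open chromatin gained accessibility with LPS in WT macrophages and not in AhR-KO macrophages, and these peaks are described here. They were chosen by their levels among 184158 consensus peaks, of which 176815 lay on chromosomes 1 to 19 outside a region of chromosome 12 from 15.5 to 55.5 Mb that holds the Ahr gene and was left out. The level of a peak is its CPM, the count in the peak per M (mega) counts of the library. A peak was selected when its mean over the 6 WT LPS libraries was at least 2.5 times the WT unstimulated mean and at least 1 CPM, while its AhR-KO LPS mean was below the AhR-KO unstimulated mean or less than 25% above it. By the same limits 13521 peaks opened in both genotypes, and 239 opened in AhR-KO only.

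The study measured chromatin accessibility by ATAC-seq, which uses a transposase to insert adapters where DNA is open. The cells were macrophages differentiated from mouse bone marrow (BMDMs). The 24 libraries formed 4 groups of 6, which were WT unstimulated, WT LPS, AhR-KO unstimulated and AhR-KO LPS. The AhR-KO mice carry a germline disruption of Ahr, so all cells of their cultures lack the normal gene, and WT marrow was from wildtype mice. All cultures were grown with GM-CSF at 10 ng/ml, TGF-β at 2 ng/ml and 10% serum, which gives cells used as a model of alveolar macrophages. The labelled protocol gave LPS at 97 EU/ml on day 6 for 24 h and then the calcium ionophore A23187 at 5 µM for 10 min. That protocol text stands with every library, and the labels name the treatment of each one apart from it. The labels do not tie a library to an animal, so p-values measure the spread between these libraries.

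LPS (lipopolysaccharide) is a component of the bacterial wall that binds Toll-like receptor 4. Signalling from this receptor releases NF-kB to the nucleus and activates AP-1 and interferon regulatory factors, and secreted interferons and cytokines then act through STAT factors. These factors bind promoters and distant enhancers, where they can evict nucleosomes and open the DNA. AhR, the aryl hydrocarbon receptor, is a ligand-activated transcription factor that enters the nucleus, pairs with ARNT and binds DNA around a short core. In macrophages and dendritic cells it is known for the response to tryptophan breakdown products and for tuning inflammation.

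Short DNA motifs were counted inside the peaks, and their shares are given after the positions. The central 300 bases of 6 peaks are printed from the plus strand of the mm10 build. They were picked because they hold the lowest AhR-KO LPS level relative to WT LPS (Glt1d1, Slc22a22), the highest WT LPS level (Lmod3, Fabp5), an over 10-fold rise in WT (Gad1) or a receptor of the eicosanoid pathway as the nearest gene (Ptgdr). Capitals mark matches on either strand to NF-kB, to STAT (TTCNNNGAA), to RUNX (TGTGGTT) or to the AhR core (GCGTG).
Lmod3, chr6:97311448-97311747: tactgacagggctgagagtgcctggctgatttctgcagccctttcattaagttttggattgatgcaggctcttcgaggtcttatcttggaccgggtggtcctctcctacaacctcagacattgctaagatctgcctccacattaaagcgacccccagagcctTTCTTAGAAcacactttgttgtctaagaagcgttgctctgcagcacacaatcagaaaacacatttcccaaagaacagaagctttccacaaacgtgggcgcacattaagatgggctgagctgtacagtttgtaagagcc
Fabp5, chr3:10043833-10044132: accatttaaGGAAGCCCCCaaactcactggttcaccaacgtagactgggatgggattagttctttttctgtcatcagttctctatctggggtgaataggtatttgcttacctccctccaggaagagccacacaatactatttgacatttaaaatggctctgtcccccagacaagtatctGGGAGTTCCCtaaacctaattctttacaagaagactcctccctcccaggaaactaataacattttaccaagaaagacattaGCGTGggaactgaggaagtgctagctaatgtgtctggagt
Gad1, chr2:70609941-70610240: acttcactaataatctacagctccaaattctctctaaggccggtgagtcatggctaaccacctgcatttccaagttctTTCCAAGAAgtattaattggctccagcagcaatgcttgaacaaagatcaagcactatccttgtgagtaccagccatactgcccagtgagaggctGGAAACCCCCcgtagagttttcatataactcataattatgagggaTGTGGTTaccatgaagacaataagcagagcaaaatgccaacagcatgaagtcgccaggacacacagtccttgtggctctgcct
Glt1d1, chr5:127675361-127675660: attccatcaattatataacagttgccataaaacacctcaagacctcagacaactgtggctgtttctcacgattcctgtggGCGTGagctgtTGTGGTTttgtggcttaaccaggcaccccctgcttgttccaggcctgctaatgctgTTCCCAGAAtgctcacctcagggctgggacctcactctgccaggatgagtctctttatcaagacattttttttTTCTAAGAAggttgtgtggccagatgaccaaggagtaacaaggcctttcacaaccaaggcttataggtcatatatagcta
Slc22a22, chr15:57547190-57547489: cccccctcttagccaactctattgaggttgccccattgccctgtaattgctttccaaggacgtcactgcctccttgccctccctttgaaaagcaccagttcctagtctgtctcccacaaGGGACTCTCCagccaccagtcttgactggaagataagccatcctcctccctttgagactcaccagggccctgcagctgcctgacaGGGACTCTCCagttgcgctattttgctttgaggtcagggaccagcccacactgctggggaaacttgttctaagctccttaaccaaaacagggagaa
Ptgdr, chr14:44913299-44913598: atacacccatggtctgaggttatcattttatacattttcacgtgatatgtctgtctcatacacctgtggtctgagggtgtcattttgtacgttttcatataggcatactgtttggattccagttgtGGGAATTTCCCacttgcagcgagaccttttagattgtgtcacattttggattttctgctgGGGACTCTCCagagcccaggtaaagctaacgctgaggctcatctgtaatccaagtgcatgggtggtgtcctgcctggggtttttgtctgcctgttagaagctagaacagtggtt
The window nearest Slc22a22 held 2 NF-kB matches with the same letters, at bases 120 to 129 and 205 to 214 counted from its first base. In the Gad1 window, STAT, NF-kB and RUNX matches all occurred, at bases 79 to 87, 173 to 182 and 218 to 224. The Glt1d1 window held 2 STAT matches, 1 RUNX match and 1 AhR core. A match is a run of letters and not a measured binding site, and ATAC-seq does not show which factor sits there.

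The libraries held 8.54 to 34.6 M (mega) counts in the consensus peaks, and the filter on low counts kept 755 of the 770 peaks for the edgeR fits. Of 12 macrophage markers, 11 had a peak over their TSS (transcription start site), and Spi1 had none. Their summed level was 231 to 259 CPM in WT unstimulated, 229 to 249 in WT LPS, 263 to 327 in AhR-KO unstimulated and 219 to 271 in AhR-KO LPS, so AhR-KO lay above WT without LPS. None of the T cell or B cell markers had such a peak. Libraries stood apart in these 770 peaks: WT LPS replicate 3 was the lowest and WT LPS replicate 6 the highest of the WT LPS group, and AhR-KO LPS replicate 3 was the highest of its own group. Without WT LPS replicate 3 the limits selected 946 peaks, without WT LPS replicate 6 they selected 617, and without AhR-KO LPS replicate 3 they selected 982. Each replicate 3 LPS library thus lay on the side of the other genotype in these peaks. In the TSS peaks of Flt3 and Kit, described below, each lay within the range of its own genotype. WT LPS replicate 3 had 8.61 and 11.04 CPM there. AhR-KO LPS replicate 3 had 5.008 and 6.93 CPM, the highest of the AhR-KO libraries. Whether the pair was handled apart or mixed up is not given in the sources used here and was not tested. Without both replicate 3 LPS libraries the limits selected 1195 peaks, of which 741 are among the 770. In a bulk culture, fewer cells of a type and less open DNA per cell cannot be told apart.

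Across the 770 peaks the mean level had a median of 0.570 CPM in WT unstimulated, 2.08 CPM in WT LPS, 0.437 CPM in AhR-KO unstimulated and 0.432 CPM in AhR-KO LPS. The WT LPS mean ran from 1.0003 to 20.6 CPM, so most of these were peaks of low to moderate height. Between LPS and unstimulated means the ratio in WT ran from 2.501 to 16.3 with a median of 3.45, and the ratio in AhR-KO from 0.402 to 1.2497 with a median of 1.03. The AhR-KO LPS mean was a median of 0.192 times the WT LPS mean. These values chose the peaks and are given as a description with no test.

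**Figure D1:**
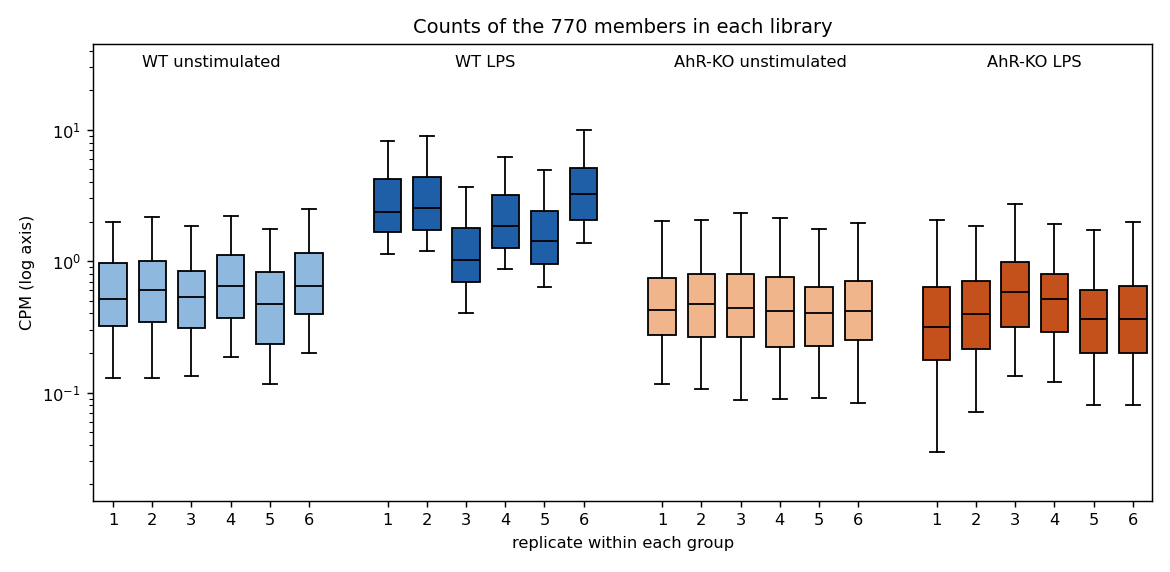
Levels of the 770 peaks in each of the 24 libraries, in CPM on a log axis, with boxes at the quartiles, a line at the median and whiskers at the 5th and 95th percentiles. Values under 0.02 CPM are drawn at 0.02. The medians of the 6 WT LPS libraries ran from 1.03 to 3.24 CPM, and those of the other 18 libraries from 0.316 to 0.649 CPM.

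The 6 WT LPS libraries differed widely in these peaks. Their medians were 2.37, 2.56, 1.03, 1.86, 1.43 and 3.24 CPM in replicates 1 to 6. In WT unstimulated the medians lay between 0.469 and 0.649 CPM, in AhR-KO unstimulated between 0.406 and 0.475 CPM, and in AhR-KO LPS between 0.316 and 0.581 CPM. Thus the lowest WT LPS library was still above each library of the other groups in its median, and the 3 other groups overlapped. Single peaks followed the same order: WT LPS replicate 6 was the highest of its group in 537 of the 770 peaks and WT LPS replicate 3 the lowest in 645. The highest WT LPS library was a median of 3.41 times the lowest, against 1.72 times in the peaks opened in both genotypes and 1.68 times in all peaks. In AhR-KO LPS the same ratio was 2.74, against 1.60 and 1.64. The library medians there had a median of 0.378 CPM in the 770 peaks, 4.20 in the peaks opened in both genotypes and 1.84 in all peaks. Counting noise widens such a ratio at low levels, so in AhR-KO LPS it does not show whether these peaks varied more between cultures. The first principal component of the WT LPS libraries held 89.0% of their variance in the 770 peaks, 67.6% in the peaks opened in both genotypes and 43.0% in all peaks.

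The order of the WT LPS libraries was another one in the peaks that opened in both genotypes. There the medians ran from 3.12 to 3.87 CPM, and replicate 3 was the highest. Counted against the WT unstimulated mean, 735, 735, 143, 597, 369 and 742 of the 770 peaks reached 2.5 times that level in WT LPS replicates 1 to 6. In the AhR-KO LPS libraries 12 to 34 of them did, and in AhR-KO unstimulated 11 to 27.

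Of the markers of dendritic cells, which can arise beside macrophages in GM-CSF cultures, the Ccr7 peak moved with this order. Ccr7, the chemokine receptor that guides activated dendritic cells to lymph nodes, had a TSS peak of 8.31, 8.36, 3.29, 7.33, 4.54 and 10.8 CPM in WT LPS replicates 1 to 6. Ranked by height, replicates 6, 2, 1, 4, 5 and 3 followed each other in the Ccr7 peak exactly as in the medians of the 770 peaks. In AhR-KO LPS the Ccr7 peak had 1.90, 1.83, 4.43, 2.19, 1.73 and 2.58 CPM, again with replicate 3 the highest, and unstimulated libraries had 0.361 to 1.53 CPM. Below replicate 3 the AhR-KO LPS orders differed, with replicates 6, 4, 1, 2 and 5 in the Ccr7 peak and 4, 2, 6, 5 and 1 in the medians of the 770 peaks. Flt3, the growth factor receptor of dendritic cell precursors, had 14.3, 14.8, 8.61, 10.7, 8.25 and 13.1 CPM in WT LPS replicates 1 to 6. As in the medians of the 770 peaks, replicates 6, 2 and 1 were the highest and 5 and 3 the lowest, though their order among themselves was another one. Flt3 had 8.25 to 14.8 CPM in WT LPS, 5.97 to 11.8 CPM in WT unstimulated and 3.01 to 5.008 CPM in the 12 AhR-KO libraries, with no overlap between the genotypes. With LPS, AhR-KO was lower than WT in both TSS peaks, by a log2 difference of -1.53 ± 0.24 (SE) for Ccr7 with an edgeR adjusted p of 1.13e-05 and of -1.29 ± 0.15 for Flt3 with an edgeR adjusted p of 2.42e-08. Unlike the 770 peaks, Ccr7 also gained with LPS in AhR-KO, by a log2 change of 2.13 ± 0.34 (edgeR adjusted p of 4.30e-06). The LPS change in AhR-KO minus that in WT was -0.71 ± 0.48 for Ccr7 and -0.13 ± 0.22 for Flt3 (edgeR adjusted p of 0.351 and 0.743). Of the 4 dendritic cell markers 3 had a TSS peak, and Xcr1 had none. Their summed level was 25.9 to 34.02 CPM in WT unstimulated, 28.5 to 46.4 in WT LPS, 26.8 to 32 in AhR-KO unstimulated and 19.7 to 25.6 in AhR-KO LPS. The third marker with a peak, Zbtb46, a transcription factor of classical dendritic cells, had 19.2 to 23.6 CPM in WT unstimulated, 15.4 to 22.5 in WT LPS, 22.05 to 27.2 in AhR-KO unstimulated and 13.03 to 18.1 in AhR-KO LPS. It was highest in replicate 6 and lowest in replicate 1 of WT LPS. Unlike the 770 peaks it was lower with LPS in WT, by a log2 change of -0.27 ± 0.08 with an edgeR adjusted p of 0.0026, and in AhR-KO against WT it was 0.21 ± 0.08 higher without LPS (edgeR adjusted p of 0.0312) and lower with LPS, at -0.19 ± 0.08 (edgeR adjusted p of 0.0441). For Zbtb46 the LPS change in AhR-KO minus that in WT was -0.40 ± 0.11 (edgeR adjusted p of 0.0117).

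Kit, the only one of 4 mast cell markers with a TSS peak and also a receptor of blood precursors, had 9.02 to 15.5 CPM in the WT libraries and 3.92 to 6.93 CPM in the AhR-KO libraries. In WT LPS replicates 1 to 6 it had 15.3, 15.5, 11.04, 14.3, 13.1 and 15.2 CPM, so replicates 2, 1 and 6 were again the highest and 5 and 3 the lowest. The neutrophil list had 2 of 5 markers with a peak and summed to 16.2 to 23.5 CPM in WT LPS and 19.1 to 21.6 CPM in AhR-KO LPS. Its 2 markers went opposite ways without LPS. In AhR-KO Cxcr2 was lower, at -0.84 ± 0.12 (edgeR adjusted p of 7.32e-07), and S100a8 was higher, at 0.25 ± 0.08 (edgeR adjusted p of 0.00854). With LPS the differences were -0.20 ± 0.11 and 0.09 ± 0.08 (edgeR adjusted p of 0.162 and 0.377). The fibroblast list, with 2 of 3 markers, summed to 14.1 to 20.4 CPM in WT unstimulated, 13.4 to 19.7 in WT LPS, 15.5 to 18.99 in AhR-KO unstimulated and 11.3 to 13.04 in AhR-KO LPS, so the genotypes did not overlap with LPS. Pdgfra made up most of it, and with LPS it was lower in AhR-KO by a log2 difference of -0.37 ± 0.09 (edgeR adjusted p of 6.21e-04). The epithelial list, also 2 of 3, summed to 10.3 to 11.9 CPM in WT LPS and 7.97 to 11.8 in AhR-KO LPS, and Epcam was lower in AhR-KO with LPS, at -0.42 ± 0.10 (edgeR adjusted p of 4.66e-04), and without, at -0.47 ± 0.10 (edgeR adjusted p of 2.46e-04). Cdh1, the other epithelial marker with a peak, was not lower in AhR-KO with LPS, at 0.14 ± 0.12 (edgeR adjusted p of 0.388). Without LPS it was lower, at -0.34 ± 0.12 (edgeR adjusted p of 0.0249). The part of dendritic cells, mast cells, neutrophils, fibroblasts, epithelial cells or precursors in the pattern of the 770 peaks was not tested.

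**Figure D2:**
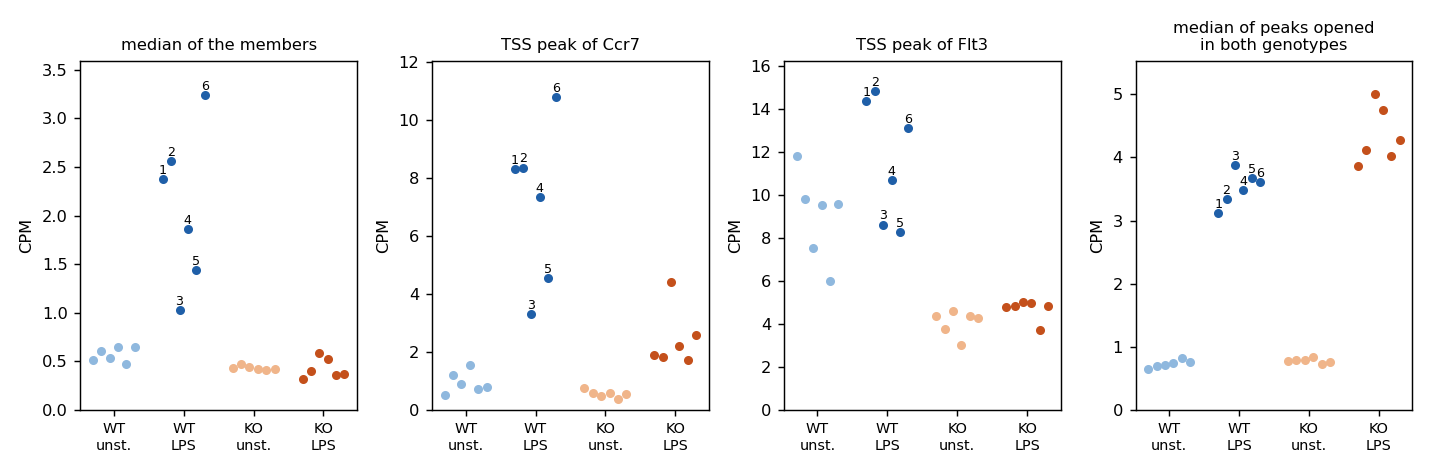
CPM by group in each library, for the median of the 770 peaks, the TSS peaks of Ccr7 and Flt3 and the median of the peaks opened in both genotypes, with the WT LPS libraries numbered by replicate and every vertical axis starting at 0. Replicate 6 is the highest and replicate 3 the lowest WT LPS library in the first 2 panels, while replicate 3 is the highest in the last panel.

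Fitted over all 24 libraries, every one of the 755 tested peaks was a DAR (differentially accessible region, past a fold of 1.5 either way at an edgeR adjusted p up to 0.05) for LPS in WT, where 25.4% of all tested peaks were higher. In AhR-KO, 0 of them were higher with LPS, beside 27.3% of all tested peaks, and 14 were lower, beside 21.5%. These counts follow from the limits that selected the peaks. The median log2 change with LPS was 1.74 for the WT and 0.03 for the AhR-KO libraries. The interaction is the LPS change in AhR-KO minus that in WT, and for it 656 were lower, beside 4.58% of all tested peaks, with a median of -1.84. This count too follows largely from the limits.

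Under LPS the AhR-KO libraries were lower than WT in 727 of the 755 peaks by the DAR limits, beside 13.1% of all tested peaks, with a median log2 difference of -2.35. Every WT LPS library was above every AhR-KO LPS library in 623 of the 770 peaks, beside 9.48% of all peaks, and above every WT unstimulated library in 541, beside 20%. Without LPS the genotypes also differed in part of the set: AhR-KO was lower in 138 and higher in 43 of the 755, beside 12.6% and 9.95% of all tested peaks, with a median log2 difference of -0.43. All these contrasts share libraries with the rule. The counts with LPS follow in large part from the limits that selected the peaks, so they are a description and no test.

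The 770 peaks were not alike in the AhR-KO cells. In 646 of them both AhR-KO means were below the WT unstimulated mean or less than 25% above it, so the peak stayed near or below its resting WT level. AhR-KO unstimulated was below WT unstimulated in 590 peaks. A smaller group was open in AhR-KO cells before LPS: in 26 peaks the AhR-KO unstimulated mean was at least 2 times that of WT unstimulated, and in 10 it was at or above the WT LPS mean. The AhR-KO LPS mean was below the AhR-KO unstimulated mean in 327 peaks. The share over all peaks is not given for the counts of this paragraph, so they describe the set and do not show how unusual it is.

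Each library also had its own list of called peaks, made from the same reads. Of the 770 peaks, 710, 736, 340, 563, 442 and 736 overlapped a called peak in WT LPS replicates 1 to 6. These lists overlapped 56.2% to 61.2% of all peaks. The other libraries held 19 to 126 of the 770, while their lists overlapped 38.9% to 59.2% of all peaks. In 360 peaks at least 4 of the 6 WT LPS lists and none of the 18 other lists had a call, and 283 were called in all 6 WT LPS lists. No AhR-KO LPS list had a call for 653 of the 770, and no WT unstimulated list for 606. For these counts over several lists the share over all peaks is not given, so how unusual they are cannot be read from them.

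Near the limits the choice was narrow. The peaks just inside the WT limit had ratios of 2.5012 (nearest St6galnac5) and 2.5013 (Psca), and those just outside had 2.497 (Cxcl12) and 2.497 (Dnajc5b). At the limit on the level, 1.0003 CPM (Vps13a) and 1.003 CPM (Tcf4) were inside, while 0.9996 CPM (Pappa2) and 0.998 CPM (Cox6c) were outside. For the AhR-KO ratio, 1.2497 (Brd1) and 1.2494 (Xpr1) were inside, and 1.2502 (Frzb) and 1.2505 (Nrp1) outside. At the borders of the region left out on chromosome 12, the nearest selected peaks lay 4177 kb (Smc6) and 3663 kb (Mia2) away, and the nearest peaks inside it that passed the value limits 1256 kb (Greb1) and 4050 kb (Scfd1).

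The 8 peaks with the highest WT LPS mean lay in introns or between genes. The highest was in an intron of Frmd4b (chr6:97310545-97312651), 58.8 kb from the TSS of Lmod3, which encodes an actin-binding protein of muscle. It ran from 6.09 to 9.60 CPM in WT unstimulated with a median of 8.13, from 11.3 to 29.5 in WT LPS with a median of 21.2, from 3.92 to 4.85 in AhR-KO unstimulated with a median of 4.19 and from 4.24 to 5.05 in AhR-KO LPS with a median of 4.42. The AhR-KO libraries thus lay below the WT libraries with and without LPS, and the WT groups did not overlap. Between genes, 31.4 kb from the TSS of Fabp5, a fatty acid binding protein of alveolar macrophages, a peak (chr3:10043464-10044503) had 5.28 to 7.39 CPM in WT unstimulated with a median of 5.81, 9.86 to 23.3 in WT LPS with a median of 16.9, 7.18 to 10.0 in AhR-KO unstimulated with a median of 8.37 and 4.50 to 8.94 in AhR-KO LPS with a median of 6.28. Here AhR-KO unstimulated cells were not below the resting WT level, and the WT LPS libraries did not overlap those of AhR-KO LPS.

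An intron of Prodh (chr16:18081592-18083017), the gene of proline dehydrogenase, held a peak of 8.64 to 16.9 CPM in WT LPS with a median of 13.8, against 4.50 to 6.02 in WT unstimulated, 3.83 to 5.17 in AhR-KO unstimulated and 4.11 to 7.41 in AhR-KO LPS. In Rras2, a small GTPase related to RAS, an intronic peak (chr7:114071325-114072406) had 5.32 to 16.9 CPM in WT LPS with a median of 12.5, 2.08 to 3.55 in WT unstimulated, 2.49 to 4.19 in AhR-KO unstimulated and 1.85 to 4.74 in AhR-KO LPS. At both sites every WT LPS library was above all others. A peak 48.6 kb from the TSS of Tnfsf11 (chr14:78356126-78357216), the gene of the osteoclast factor RANKL, had 7.37 to 15.01 CPM in WT LPS with a median of 10.9, 2.23 to 5.30 in WT unstimulated, 2.48 to 3.21 in AhR-KO unstimulated and 2.28 to 5.86 in AhR-KO LPS. The other 3 of the 8 were in introns of Myo1d (nearest TSS Cdk5r1), Stmn2 and Ccdc162, with WT LPS means of 13.03, 11.1 and 10.6 CPM. The Myo1d peak was among those open before LPS in AhR-KO, with 9.92 to 13.2 CPM in AhR-KO unstimulated against 3.76 to 6.04 in WT unstimulated.

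**Figure D3:**
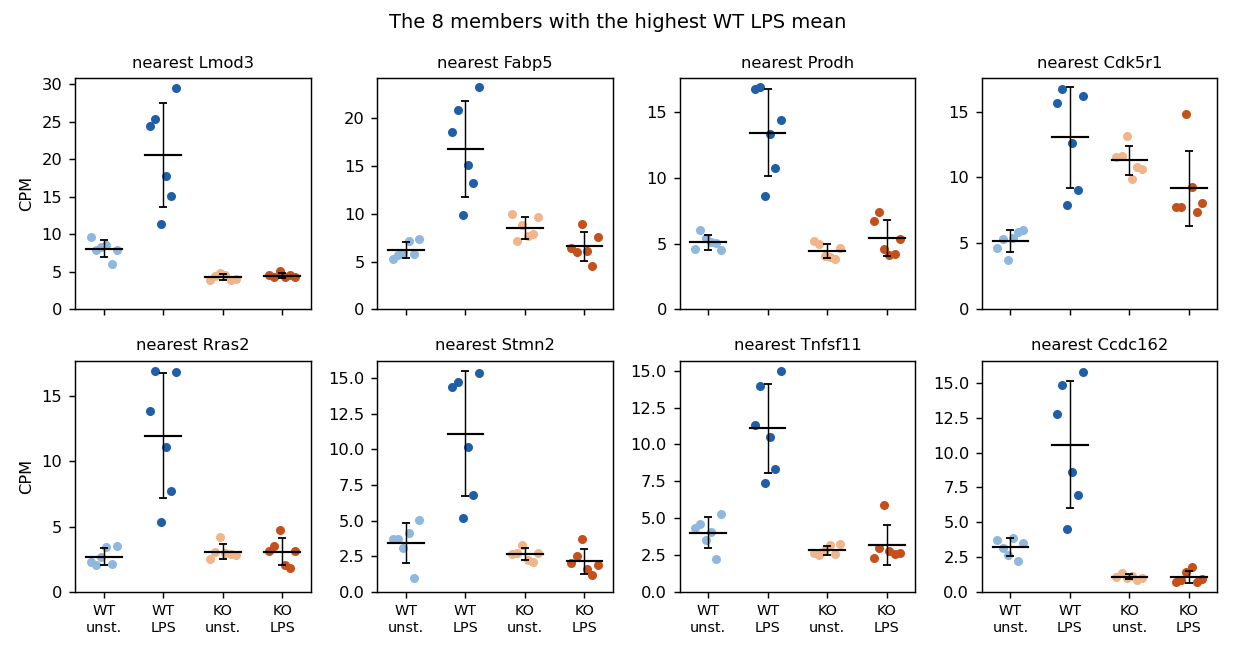
CPM of the 8 peaks with the highest WT LPS mean, with a point for each of the 6 libraries of a group, a line at the mean and a bar for 1 SD on each side, on vertical axes that start at 0 and differ between panels. WT LPS is the highest group in its mean in all 8 panels.

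Among peaks with a WT LPS mean of at least 2 CPM, 400 of the 770, those with the steepest rise started close to 0. Between genes near Nid2, a basement membrane gene (chr14:19694507-19695169), the level was 0.117 to 0.510 CPM in WT unstimulated with a median of 0.311, 1.21 to 6.19 in WT LPS with a median of 4.15, 0.135 to 0.266 in AhR-KO unstimulated with a median of 0.203 and 0.0807 to 0.518 in AhR-KO LPS with a median of 0.150. The WT ratio of means was 12.9 and the AhR-KO ratio 1.03. Peaks in introns of Smyd1 (a muscle histone methyltransferase) and Depdc5 (a subunit of a complex that restrains mTORC1) had WT ratios of 12.1 and 12. The peak near Gad1, the enzyme that makes the transmitter GABA (chr2:70609758-70610425), had 1.21 to 5.98 CPM in WT LPS and 0.0402 to 0.358 in AhR-KO LPS. Introns of 2 chromatin genes, Suz12 of the Polycomb complex and the maintenance DNA methyltransferase Dnmt1, held peaks with WT ratios of 10.7 and 10.6, at WT LPS means of 2.44 and 2.43 CPM. The peaks near Slc22a22 and Sohlh1 had ratios of 10.3 and 9.90. At each of these 8 sites all WT LPS libraries were above all libraries of the other 3 groups.

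Relative to WT LPS, the AhR-KO LPS level was lowest at an intronic peak of Glt1d1 (chr5:127675182-127675840). It had 3.24 to 12.3 CPM in WT LPS with a median of 8.88 and 0.820 to 2.498 in WT unstimulated with a median of 1.93. The 12 AhR-KO libraries had 0.105 to 0.626 CPM, so AhR-KO lay below WT at rest as well, and the AhR-KO LPS mean was 3.76% of the WT LPS mean. The same order held near Tnfrsf8, which encodes the surface receptor CD30 (chr4:145344863-145345480), with 3.70 to 11.7 CPM in WT LPS, 1.87 to 3.64 in WT unstimulated and 0.322 to 0.634 over the AhR-KO libraries. Near Slc22a22 (chr15:57547074-57547607), WT LPS had 2.15 to 7.92 CPM, while the other 18 libraries had 0.107 to 0.834. The list also held peaks near Tnk2 and in an intron of Ptpn14, with AhR-KO LPS means of 0.139 and 0.159 CPM against 2.91 and 3.07 in WT LPS.

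The peaks that were already open in resting AhR-KO cells included, beside the Myo1d peak, one 57.99 kb from the TSS of Rras2 (chr7:114175521-114176014). It had 1.52 to 2.80 CPM in WT unstimulated, 3.93 to 11.6 in WT LPS with a median of 7.24, 5.81 to 9.25 in AhR-KO unstimulated with a median of 7.02 and 4.79 to 9.39 in AhR-KO LPS with a median of 6.73. An intron of Ip6k2, an inositol phosphate kinase, held another (chr9:108798552-108799146), at 1.48 to 2.85, 5.78 to 8.62, 7.89 to 10.8 and 7.97 to 12.9 CPM in the same order of groups. At both sites the AhR-KO libraries without LPS stood within or above the range of WT LPS.

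Genes of the LPS and AhR pathways were looked up in 10 lists. A listed gene was the nearest gene of a selected peak within 100 kb of its TSS for 2 genes of the cytokine and chemokine list (39 genes annotated), 1 of NF-kB and TLR signalling (44), 1 of the interferon response and IRF/STAT factors (44), 1 of AP-1, ATF and C/EBP factors (30) and 3 of AhR targets and partners (26). It was 1 of the eicosanoid list (36), 1 of the feedback inhibitors (26), 1 of alveolar macrophage identity (34), 1 of lipid, iron and metabolic genes (29) and 1 of migration, matrix and surface receptors (39). Over all lists these were 13 of 346 genes, or 3.76%, beside 575 of all 21938 protein-coding genes, or 2.62%, so the listed genes were near the share over all genes.

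The AhR list had 4 such peaks at 3 genes. Kynu and Kmo encode enzymes of the kynurenine pathway, whose products include AhR ligands. Between genes 47.4 kb from Kynu (chr2:43507461-43508396) the level was 1.28 to 1.99 CPM in WT unstimulated, 2.05 to 6.15 in WT LPS with a median of 4.80, 0.350 to 0.797 in AhR-KO unstimulated and 0.456 to 1.03 in AhR-KO LPS. The WT and AhR-KO libraries did not overlap at this site in either condition. In an intron of Kmo (chr1:175651851-175652247) it was 0.400 to 0.751, 1.07 to 3.21, 0.308 to 0.631 and 0.322 to 0.537 CPM in the same order. Ncoa7, a nuclear receptor coactivator family gene, had an intronic peak (chr10:30716121-30716488) of 0.636 to 3.28 CPM in WT LPS and 0.281 to 0.447 in AhR-KO LPS.

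The transcription factor Irf8, required for several dendritic cell and monocyte lines, had a peak 19.04 kb from its TSS (chr8:120756947-120758405), in an intron of the overlapping annotated gene Gm20388. The level was 0.966 to 1.99 CPM in WT unstimulated with a median of 1.87, 3.12 to 10.1 in WT LPS with a median of 6.23, 1.11 to 1.85 in AhR-KO unstimulated with a median of 1.38 and 0.807 to 2.32 in AhR-KO LPS with a median of 1.06. The WT LPS libraries were above all others. Bach2, a repressor of lymphoid cells, had an intronic peak (chr4:32432650-32433118) of 0.642 to 3.58 CPM in WT LPS and 0.215 to 0.605 in AhR-KO LPS.

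Of the cytokines, Lif had a peak 10.5 kb away (chr11:4246737-4247438) with 0.867 to 3.51 CPM in WT LPS and 0.421 to 0.917 in AhR-KO LPS, which overlapped. Il15, a growth factor of natural killer cells, had one 84.1 kb away (chr8:82317446-82317941) with 0.549 to 2.37 and 0.105 to 0.363 CPM. Traf6, the ubiquitin ligase below Toll-like receptors, had an intronic peak (chr2:101688147-101688772) of 0.678 to 1.97 CPM in WT LPS and 0.444 to 0.894 in AhR-KO LPS, so the groups overlapped. Ptgdr, a receptor of prostaglandin D and the eicosanoid gene of the set, had a peak 54.1 kb away (chr14:44912999-44913899). It had 0.751 to 1.42 CPM in WT unstimulated, 1.47 to 8.99 in WT LPS with a median of 5.48, 0.634 to 0.933 in AhR-KO unstimulated and 0.484 to 0.967 in AhR-KO LPS. The remaining listed genes were Dusp10 (a MAP kinase phosphatase), Slc7a11 (the cystine transporter) and Cx3cr1 (the fractalkine receptor), whose peaks had WT LPS means of 1.43, 1.01 and 2.07 CPM and AhR-KO LPS means of 0.213, 0.262 and 0.644 CPM.

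By position, 357 of the 770 peaks lay in introns, 359 between genes, 8 in coding exons and 17 in 3' UTRs. Promoters, taken as 1 kb around a TSS, held 29, or 3.77%, against 3.83% of the peaks opened in both genotypes and 11.2% of all peaks. The median distance to the nearest TSS was 31.5 kb, against 32.95 kb and 26.3 kb. The median width was 510 bases (146 to 2733), and the median GC content was 45.7%, against 45.1% in the peaks opened in both genotypes and 46.5% in all peaks. The peaks were thus mostly distal, like those opened in both genotypes.

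The 770 peaks had 676 nearest protein-coding genes, of which 78 had 2 or more and 12 had 3 or more. Within 100 kb of another selected peak lay 179 of them, and 18 runs held at least 3. A run of 6 covered 212 kb of introns of St6galnac3, a sialyltransferase gene (chr3:153507698-153720126), with WT LPS means of 1.06 to 3.17 CPM and AhR-KO LPS means of 0.144 to 0.425 CPM. Another run of 6 lay in 84.8 kb between Dusp10 and Hlx, a homeobox factor (chr1:184344682-184429529). A run of 3 lay at Tcf7, a transcription factor of lymphoid and stem-like cells (chr11:52265608-52318867). Chromosome 1 held 79 of the 770, or 10.3%, and 7.98% of all peaks.

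Motif content was counted in the central 300 bases on both strands, for 14 motifs. NF-kB matches were present in 23.2% of the 770 peaks, against 14.1% of the peaks opened in both genotypes, 4.60% of those opened in AhR-KO only and 7.30% of all peaks. The share with STAT (TTCNNNGAA) was 22.9%, against 13.5%, 12.1% and 11%. RUNX (TGTGGTT), the site of factors that guide blood cell lineages, was in 17.7%, against 9.41%, 11.3% and 10.6%. At least 1 of these 3 was in 396 peaks, or 51.4%, against 31.9% of the peaks opened in both genotypes and 26.1% of all peaks.

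AP-1 (TGANTCA) was low in the set. It was in 12.5% of the 770 peaks, against 43.4% of the peaks opened in both genotypes and 17.9% of all peaks. The AhR core (GCGTG) was in 11.8%, against 12.4% and 16.2%, so most of these peaks held no AhR core in this window. No match says only that these letters are not in the 300 bases. The nuclear receptor element (AGGTCA) was in 29.5%, against 23.4% and 20.3%.

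For the other motifs the shares in the 770 peaks were 13.1% for IRF (GAAANNGAA), 11.2% for the NRF2/BACH element (TGACNNNGC), 10.1% for C/EBP (TTGCNNAA), 5.71% for PU.1 (GAGGAAGT), 3.25% for the GC box (GGGCGG), 2.34% for the E-box (CACGTG), 1.30% for the C/EBP-ATF composite (TGATGNAAT) and 0.130% for the CRE (TGACGTCA). PU.1, the site of a master factor of macrophages, was in 2.84% of the peaks opened in both genotypes and 7.33% of all peaks. The NRF2/BACH letters can overlap an AP-1 match, and STAT and IRF can share a GAA. These shares are a description and were not tested.

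**Figure D4:**
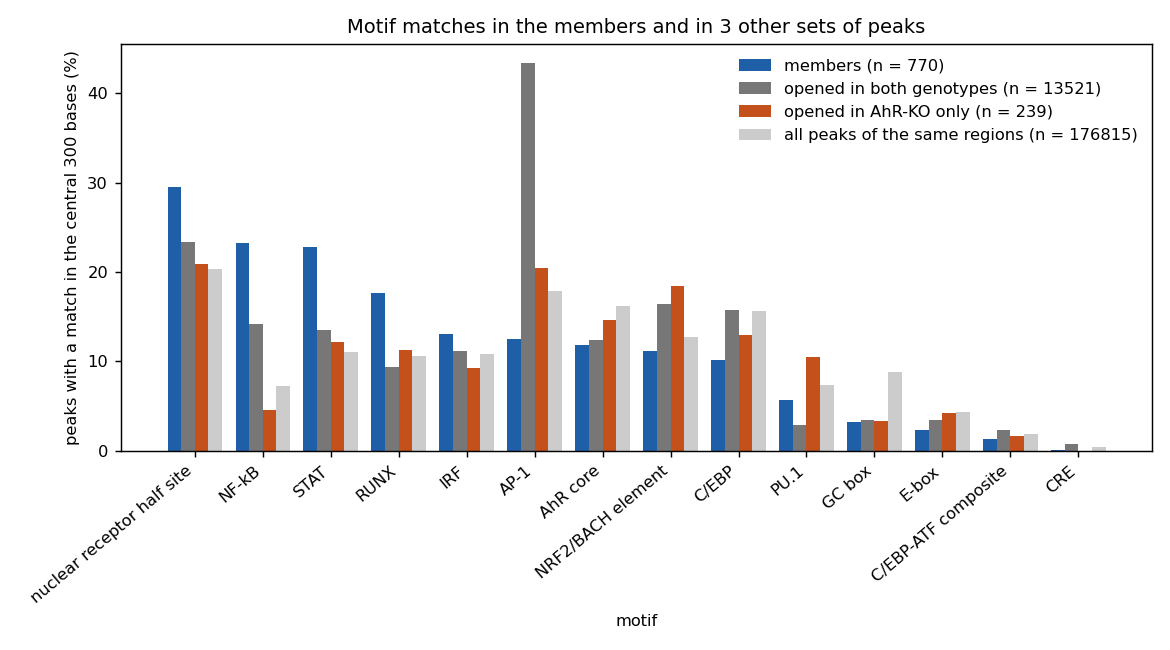
Share of peaks with a match to each of 14 motifs on either strand of the central 300 bases, in percent, as bars that start at 0, for the 770 peaks, the 13521 opened in both genotypes, the 239 opened in AhR-KO only and all 176815. The 770 peaks have the tallest bar of the 4 sets for NF-kB, STAT, RUNX, IRF and the nuclear receptor element, and the shortest for AP-1, the AhR core, the NRF2/BACH element, C/EBP, the GC box, the E-box and the C/EBP-ATF composite.

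To test the LPS changes in libraries that did not choose the peaks, the same limits were applied to replicates 1, 3 and 5 of each group, and edgeR was run on replicates 2, 4 and 6 alone. The limits selected 611 peaks, of which 391 are among the 770 and 609 were tested. In the held-out libraries their median level was 0.707 CPM in WT unstimulated, 2.71 in WT LPS, 0.447 in AhR-KO unstimulated and 0.529 in AhR-KO LPS. With LPS in WT, 576 of the 609 were higher by the DAR limits, or 94.6%, and 0 were lower, beside 24.1% and 21.2% of all tested peaks, with a median log2 change of 1.89. In AhR-KO, 43 were higher and 13 lower, beside 26% and 19.7% of all tested peaks, with a median of 0.21. The WT gain was thus seen again in nearly all of these peaks, and 43 of the 609, or 7.06%, gained in AhR-KO.

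The difference between genotypes was tested directly by the interaction. It was lower in 353 of the 609 peaks, or 57.96%, and higher in 0, beside 4.02% and 4.11% of all tested peaks, with a median log2 difference of -1.72. With LPS, AhR-KO was lower than WT in 524 and higher in 10, beside 12.3% and 13%, with a median of -2.53. Without LPS, AhR-KO was lower in 179 and higher in 44, beside 12.2% and 8.58%, with a median of -0.59.

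The reverse split gave a weaker interaction. On replicates 2, 4 and 6 the limits selected 1096 peaks, of which 282 were also selected on replicates 1, 3 and 5. Tested in replicates 1, 3 and 5, which include the low WT LPS replicate 3, 824 of 1030 were higher with LPS in WT, or 80.0%, and 36 in AhR-KO, beside 21.1% and 23.8% of all tested peaks. The interaction was lower in 24, or 2.33%, beside 0.384% of all tested peaks, with a median of -1.33, and AhR-KO was lower than WT with LPS in 777, beside 9.16%. Without WT LPS replicate 3 in that fit, an alternative chosen after the data were seen, the interaction was lower in 106 of 1066, or 9.94%, beside 0.466%, with a median of -1.59. Without both replicate 3 LPS libraries it was lower in 208 of 1072, or 19.4%, beside 0.806%. With the same library left out of the choice on replicates 1, 3 and 5, the limits selected 869 peaks, and the interaction was lower in 495, or 57.0%, beside 4.02%. With both replicate 3 LPS libraries left out of that choice they selected 1466, of which 1465 were tested. There the interaction was lower in 778, or 53.1%, beside 4.02%, and 217 gained with LPS in AhR-KO, or 14.8%, beside 26%.

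**Figure D5:**
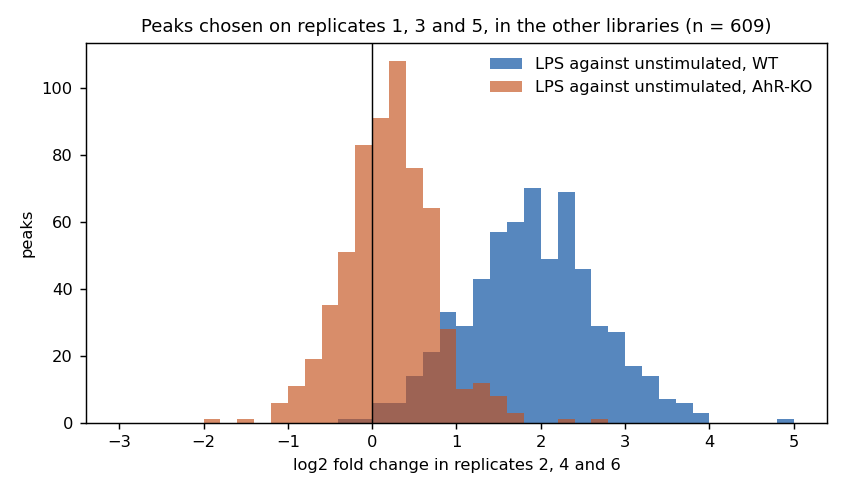
Number of peaks by log2 fold change of LPS against unstimulated in replicates 2, 4 and 6, for 609 peaks selected on replicates 1, 3 and 5, with bars for each genotype and a vertical line at 0. The WT values centre on 1.89 and the AhR-KO values on 0.21.

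The promoters of the nearest genes were measured in other peaks than those selected, though in the same libraries that made the choice. Of the 676 nearest genes, 530 had a peak over a TSS, 5 of these peaks were themselves selected, and the other 525 were compared with 12104 tested TSS peaks of protein-coding genes. Few of them followed the 770 peaks. With LPS in WT, 17 were higher and 32 lower, or 3.24% and 6.10%, beside 3.62% and 5.68% of all TSS peaks. In AhR-KO, 11 were higher and 76 lower, or 2.10% and 14.5%, beside 4.21% and 10.4%. The interaction was lower in 18 and higher in 1, or 3.43% and 0.190%, beside 2.37% and 1.02%.

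With LPS, AhR-KO was lower than WT in 45 and higher in 3 of the 525 TSS peaks, or 8.57% and 0.571%, beside 5.03% and 1.26% of all TSS peaks. Without LPS it was lower in 30 and higher in 9, or 5.71% and 1.71%, beside 3.77% and 1.86%. The median log2 difference with LPS was -0.10, against -0.03 over all TSS peaks. Most promoters of the nearest genes therefore did not pass the DAR limits in any of these comparisons taken singly.

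At the 5 TSS peaks named here with a lower interaction, accessibility fell with LPS in AhR-KO. At Fabp5 (chr3:10011966-10013521) the level was 28.3 to 31.9 CPM in WT unstimulated and 27.2 to 32.02 in WT LPS, which overlapped. It was 32.4 to 36.3 in AhR-KO unstimulated and 20.03 to 23.2 in AhR-KO LPS, below every other library. The interaction was -0.63 ± 0.08 with an edgeR adjusted p of 8.97e-07. At Irf8 (chr8:120735756-120737657), WT had 18.7 to 22.96 CPM without and 16.4 to 22.6 with LPS, and AhR-KO 22.6 to 29.2 without and 12.9 to 16.8 with LPS, at an interaction of -0.62 ± 0.11 and an edgeR adjusted p of 1.58e-04. Without AhR-KO unstimulated replicate 2 the Irf8 value was -0.57, short of the fold limit. These are the 2 listed genes whose TSS peak passed the interaction limits. Their distal peaks were selected for a gain in WT, while their TSS peaks did not pass the LPS limits in WT.

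Slc7a7, a transporter of basic amino acids, had 35.4 to 42.9 CPM at its TSS in WT unstimulated, 21.04 to 24.0 in WT LPS, 51.4 to 59.5 in AhR-KO unstimulated and 16.6 to 20.5 in AhR-KO LPS. It fell with LPS in both genotypes, by a log2 change of -0.86 in WT and -1.60 in AhR-KO. Its interaction was -0.75 ± 0.08 with an edgeR adjusted p of 9.60e-08. Hs3st3b1, a heparan sulfate sulfotransferase, had 43.7 to 54.7 CPM in WT LPS and 22.3 to 33.9 in AhR-KO LPS, and Sox4, a developmental transcription factor, 22.7 to 33.4 and 18.4 to 21.4. Their interactions were -0.68 ± 0.10 and -0.63 ± 0.10, with edgeR adjusted p-values of 1.00e-05 and 3.74e-05. Without WT LPS replicate 3 the Sox4 value was -0.56, short of the fold limit. The 1 TSS peak with a higher interaction was that of Themis3, of the family of a T cell development gene, at 1.74 ± 0.35 and an edgeR adjusted p of 7.25e-04, where the level was 0.703 to 1.44 CPM in WT unstimulated and 0.208 to 0.602 in the other 3 groups.

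With LPS, the TSS peaks of Nsmaf, Arap2, Hs3st3b1 and Nckap5 had the smallest p among those lower in AhR-KO. Nckap5 had 2.75 to 4.02 CPM in WT LPS and 0.565 to 1.08 in AhR-KO LPS, at a log2 difference of -1.94 ± 0.16 and an edgeR adjusted p of 4.99e-12. Arap2, which regulates small GTPases of the ARF family, had 22.5 to 31.4 and 12.9 to 16.6 CPM, at -0.91 ± 0.07, and Nsmaf, an adaptor of the TNF receptor, 26.7 to 31.7 and 15.4 to 16.9 CPM, at -0.80 ± 0.05. The groups did not overlap in any of these 3 peaks. Nckap5 and Arap2 were also lower in AhR-KO without LPS, by -1.63 and -0.95. Of the listed genes, Kmo had 12.4 to 26.03 CPM in WT LPS and 6.59 to 10.0 in AhR-KO LPS, at -1.29 ± 0.18 and an edgeR adjusted p of 3.47e-06, and Cx3cr1 had 8.67 to 11.5 and 4.07 to 5.51 CPM, at -1.04 ± 0.10 and an edgeR adjusted p of 8.57e-11. The 3 higher in AhR-KO were Tmem51, Stac2 and Cavin4, at 0.86, 0.80 and 0.69, and Cavin4 was at 0.54, short of the fold limit, without WT LPS replicate 1.

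In the lists, the TSS peaks of the nearest genes changed singly. The DAR limits for LPS in AhR-KO were passed, all downward, by 1 of 1 in the interferon list, 1 of 2 in the AP-1, ATF and C/EBP list and 1 of 1 in the alveolar macrophage list, and by none in the others. For AhR-KO against WT with LPS, 1 of 3 in the AhR list (Kmo) and 1 of 1 in the migration and receptor list (Cx3cr1) were lower. None of the listed genes' TSS peaks passed the limits for LPS in WT. With 1 to 3 peaks a list, no share can be read from these counts.

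Peaks close to the 770 were not selected themselves, but their levels come from the same libraries that chose the 770. A read pair can also count in several peaks. The shares below are therefore not independent of the choice, and how much of them follows from it was not tested. Within 10 kb lay 1685 tested neighbours, of which 222 were lower and 39 higher in the interaction, or 13.2% and 2.31%, beside 4.58% and 5.83% of all tested peaks. With LPS, AhR-KO was lower than WT in 472 and higher in 90, or 28.01% and 5.34%, beside 13.1% and 13.4%. The LPS changes of either genotype were nearer to those of all peaks. In WT 485 were higher and 361 lower with LPS, or 28.8% and 21.4%, beside 25.4% and 21.6%, and in AhR-KO 374 were higher and 468 lower, or 22.2% and 27.8%, beside 27.3% and 21.5%. Their median log2 interaction was -0.15, against 0.04 over all tested peaks.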

How the data were processed

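Accessibility was measured by ATAC-seq in 24 libraries, 6 for each of 4 groups taken from the labels. The authors deposited raw read-pair counts for 184158 consensus peaks on the mm10 build, made with the nf-core atacseq pipeline, which aligned and filtered each library, called broad peaks with MACS2 and merged them over all libraries. Per the file headers, featureCounts 2.0.1 assigned a pair to each peak that held at least a fraction of 0.2 of it, so a pair can count in more than 1 peak. They also deposited 1 list of broad peaks for each library, whose -log10 q-values were at least 1.00 to 1.03. The submitters' processing notes name bcl2fastq 2.20.0. How the authors placed the transposase cut sites before counting is not given in the sources used here. All count columns matched a library by name, and 0 were unused.

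CPM was computed on column totals (Python 3.11.15). The total in peaks was 8.54 to 34.6 M counts, which sets the precision and leaves out reads outside peaks. Counts were tested with edgeR 4.0.16 (R 4.3.3): filterByExpr by group, which left 174193 peaks, TMM normalization, trended dispersion and a robust quasi-likelihood fit with group as the only term. P-values are two-sided and adjusted by the Benjamini-Hochberg method over all tested peaks, and DARs pass an adjusted p of 0.05 and a fold change of 1.5, the limits the study used. The standard error is the log2 change divided by the square root of the F value. DESeq2 1.42.0 was an alternative. The procedure was tested on simulated counts with known interactions. With 12 libraries it called 0 of 67 peaks changed 1.5-fold, 15 of 67 changed 2-fold and 46 of 66 changed 4-fold. With 24 libraries it called 9, 41 and 62 of them. Interactions can thus be missed, above all in fits of 12 libraries.

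Since the rule used all 4 group means, the libraries were split for a test. Peaks were chosen on replicates 1, 3 and 5 and measured in replicates 2, 4 and 6. Other tests covered TSS peaks of the nearest genes and neighbouring peaks. These peaks were not selected themselves but were measured in the same libraries as the rule used, so they are not independent of it. Peaks were assigned to the nearest of 21938 protein-coding genes of the GENCODE basic annotation, and sequences were read from GRCm38, the assembly behind mm10, after chromosome names and lengths were compared. NF-kB was searched as its usual 10-base consensus. The members and lists were chosen with earlier results of these data known. Peaks were named by rules: the 8 steepest and 6 lowest relative to WT among those with a WT LPS mean of at least 2 CPM, the 8 highest, those near a listed gene, those at the limits, and the highest of those open or closed in AhR-KO. TSS peaks named were the 4 smallest p in each direction and those on the lists. Some peaks that these rules name are not reported here.

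Over 60 pairs of libraries of a group, the lowest chi-square per peak was 1.23, so none was counted as a duplicate.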

Additional observations from a re-analysis of the deposited data

Results flagged for a closer look

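In groups of 6 libraries, 17 of 208 groups tested had 1 library far from the others by Dixon's test at the 95% level, which chance alone gives in about 1 of 20 groups. Of these, 7 were the highest of the AhR-KO LPS libraries at a selected peak, in 3 cases replicate 3 (Cdk5r1, Tnfsf11 and Irf8). They had 0.518 CPM near Nid2, 14.8 at Cdk5r1, 5.86 at Tnfsf11, 0.439 in Ptpn14, 2.32 at Irf8, 0.605 in Bach2 and 0.362 near Slc7a11, while the lowest of the group was apart near Gad1, at 0.0402 CPM. Other selected peaks with a high library were Il15 in WT unstimulated at 0.703 CPM, Bach2 in WT LPS at 3.58 CPM and Rras2 in AhR-KO unstimulated at 4.19 CPM.

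At TSS peaks, a low library was apart for Nckap5 in WT unstimulated at 1.99 CPM and in AhR-KO unstimulated at 0.845 CPM, and for Nsmaf in AhR-KO LPS at 15.4 CPM. A high library was apart for Sox4 in AhR-KO unstimulated at 41.7 CPM and in AhR-KO LPS at 21.4 CPM, and for Arap2 in AhR-KO LPS at 16.6 CPM.

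The LPS change differed between the genotypes by the edgeR interaction in 353 of the 609 held-out peaks and in 19 of the 525 TSS peaks. By name these were Hs3st3b1 at -0.68, Sox4 at -0.63, Slc7a7 at -0.75, Themis3 at 1.74, Fabp5 at -0.63 and Irf8 at -0.62 on the log2 scale.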

How the results depend on the processing

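The count of selected peaks depended on the limits: it was 1244 with a WT fold of at least 2, 327 with an AhR-KO ratio below 1 and 1297 with one below 1.5. With TMM-normalized CPM it was 754, of which 750 were shared. Leaving out each library in turn gave 617 (without WT LPS replicate 6) to 982 (without AhR-KO LPS replicate 3), and 1195 without both replicate 3 LPS libraries.

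In the held-out libraries, leaving out each in turn gave 556 to 578 peaks higher with LPS in WT, 20 to 58 higher in AhR-KO, 312 to 418 lower in the interaction, 518 to 529 lower in AhR-KO with LPS and 113 to 200 without LPS. Without AhR-KO unstimulated replicate 6 the AhR-KO gain was 20 and the difference without LPS 113, and without AhR-KO unstimulated replicate 2 the AhR-KO gain was 28. DESeq2 gave 17 for the AhR-KO gain. The reverse split gave 36 for the AhR-KO gain, 24 for the interaction and 41 for the difference without LPS, and without WT LPS replicate 3 these were 44, 106 and 70 of 1066. Without both replicate 3 LPS libraries they were 24, 208 and 84 of 1072, and in the first split the AhR-KO gain was then 217 of 1465. The cause was not tested. These alternatives with libraries left out were chosen after the data were seen.

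For the TSS peaks of the nearest genes, dropping the fold limit raised the calls to 273 for LPS in WT, 330 for LPS in AhR-KO, 128 for the interaction, 242 for AhR-KO against WT with LPS and 271 without LPS. Higher and lower peaks are counted together here. The share over all TSS peaks without the fold limit is not given, so these counts show only how the calls depend on that limit. Leaving out each of the 24 libraries in turn gave 45 to 51, 85 to 93, 17 to 27, 43 to 55 and 36 to 43. The other alternatives kept their counts within 1.5 times.

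With the replicate number as a block, the held-out counts were 578, 49, 388, 527 and 191 in the order above, and the TSS counts 48, 88, 20, 48 and 40. Deviations from the group means correlated at over 0.1 in 5 of 6 same-numbered pairs within WT (0.0495 to 0.351), 3 of 6 within AhR-KO (0.00864 to 0.217) and 3 of 24 across genotypes. A library correlated best with its own number in 28 of 72 comparisons, 7 of 12 within WT and 6 of 12 within AhR-KO, a hint of pairing within a genotype. Since not every pair was over 0.1 and the labels tie no library to an animal, the numbers were not taken as pairs. With a block for each number within a genotype, added after the data were seen, the LPS and interaction counts were 578, 57 and 403 held out and 48, 88 and 22 at TSS peaks. Over whole peaks in place of the central 300 bases, all motif shares but that of the CRE rose. The IRF share of the 770 peaks was then no longer the highest, at 22.2% against 23.5% of the peaks opened in both genotypes and 21.8% of all peaks. At the lowest depth, 8.54 M in WT unstimulated replicate 5, a level of 0.117 CPM is 1 count.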

Other observations

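Outside the regions covered by the rule, the same value limits were met by 22 of 4794 peaks on the X chromosome, where 3 opened in AhR-KO only. In the region of chromosome 12 that was left out they were met by 11 of 2370 peaks, and 10 there opened in AhR-KO only. Across the covered regions the corresponding counts were 770 and 239 of 176815.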
